A study of Mus musculus with 16 samples.

Results

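Transcripts of 10 genes of the muscle side of the neuromuscular junction were followed in quadriceps of wild type and *Mtm1* knockout mice with and without tamoxifen. The genes were chosen by symbol from the 41388 genes of the count table, with earlier results of these data known. They are the 5 subunits of the muscle acetylcholine receptor (*Chrna1*, *Chrnb1*, *Chrnd*, *Chrng* and *Chrne*), the agrin receptor and its adaptor (*Musk*, *Lrp4* and *Dok7*), and *Ncam1* and *Runx1*, which are known for their induction in denervated muscle. All 10 were measured and passed the filter on low counts in every comparison. *Mtm1* encodes myotubularin, a phosphoinositide phosphatase whose loss causes X-linked myotubular myopathy. The knockout is germline, by removal of exon 4, on the C57BL/6 background (C57BL6J in the study's methods), so no promoter or Cre restricts it to muscle. The study sequenced 4 groups with 4 libraries each. WT and *Mtm1* KO mice had no drug. WT + TAM and *Mtm1* KO + TAM mice ate chow with tamoxifen, a selective estrogen receptor modulator, at 40 mg/kg per day from day 21. The labels give an age of 36 days for all mice. The study reports mice as its units, and its supplement says that they were littermates. Which animals shared a litter is not given in the labels, so litter could not enter the tests. If the libraries of a group are not from independent animals, the p-values measure only the spread between these libraries.

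The muscle receptor is a pentamer of α, β and δ subunits with either γ or ε. In fetal and denervated muscle the γ subunit is used and receptor genes are transcribed along the whole fiber. In innervated adult muscle ε replaces γ and transcription is held to the nuclei beneath the nerve terminal. Agrin released by the nerve binds LRP4, which activates the kinase MuSK together with its cytoplasmic adaptor Dok-7, and this cascade clusters the receptors. Loss of electrical activity releases the repression of receptor genes outside the synapse, in part through myogenin, a transcription factor that binds E-box letters in their promoters.

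The 14 libraries used by the study form the groups compared here. Without drug these are replicates 2 to 4 of WT and 9 to 11 of *Mtm1* KO, and on tamoxifen replicates 5 to 8 of WT + TAM and 13 to 16 of *Mtm1* KO + TAM. Total counts ran from 25116179 to 29847222 over the 16 libraries. *Mtm1* had 341 to 369 counts in the 3 WT libraries, 282 to 459 in WT + TAM, 63 to 76 in *Mtm1* KO and 53 to 97 in *Mtm1* KO + TAM. With 74 counts of *Mtm1*, within the range of counts of the knockouts, the library labelled WT replicate 1 goes against its label for this gene. Its *Chrna1*, *Chrnd*, *Ncam1* and *Runx1* lay below both knockout groups, as given under the flagged results. This library and the library labelled KO replicate 12, which had 85 counts of *Mtm1*, were added only as an alternative. The muscle fiber markers (7 genes, such as *Ckm* and *Ttn*) summed to between 63427 and 147618 CPM (counts per 1000000 counts, scaled by TMM) in the 14 libraries. Of 5 axon markers, *Chat*, the enzyme of acetylcholine synthesis in motor nerves, was at 0 counts in all. The axon markers together were detected at a low level, at 1.24 to 1.83 CPM in WT and 1.37 to 4.93 CPM in *Mtm1* KO. Their median sums were 2.51 CPM in WT + TAM and 2.40 CPM in *Mtm1* KO + TAM. The data are therefore not free of transcripts of axon markers. This is RNA of whole muscle, in which fewer cells of a type and less RNA per cell cannot be told apart.

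In untreated mice, knockout of *Mtm1* went with higher transcript levels of the α, δ and γ subunits, *Ncam1* and *Runx1*. Called here means an adjusted p of at most 0.01 by the quasi-likelihood test of edgeR, adjusted over all genes tested by the method of Benjamini and Hochberg. Of the 10 genes 5 were called higher in *Mtm1* KO than in WT and 0 lower, where 1.91% of the 14740 genes tested were called higher and 1.69% lower. The groups did not overlap, with *Mtm1* KO higher, for 7 of the 10 genes, against 18.7% of all genes. The median log2 fold change was 1.14 over the 10 genes and 0.02 over all genes tested. Since the 10 genes and the lists below were chosen with earlier results known, these and later shares and medians describe them only. With both unused libraries added, the same 5 genes were called.

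The α subunit *Chrna1* (chr2:73563215-73580338, minus strand, GRCm38) carries the main part of each acetylcholine site. Its level was 22.7, 32.2 and 20.5 CPM in WT replicates 2, 3 and 4, and 93.6, 106 and 145 CPM in *Mtm1* KO replicates 9, 10 and 11. Every knockout library lay above every WT library, with a log2 fold change of 2.2 ± 0.22 (SE, 4.58-fold, n = 3 and 3, edgeR, adjusted p = 8.37e-04).

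The δ subunit *Chrnd* (chr1:87190607-87200070, plus strand) had the second largest change of the 10 genes in this comparison. It was at 4.06, 3.64 and 3.16 CPM in WT and at 24.1, 19.4 and 45.1 CPM in *Mtm1* KO. Again the groups did not overlap, and *Mtm1* KO replicate 11 stood highest. It had a log2 fold change of 3.03 ± 0.31 (SE, 8.15-fold, edgeR, adjusted p = 0.00101).

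The fetal γ subunit *Chrng* (chr1:87204657-87212694, plus strand), the neighbor of *Chrnd* on the chromosome, had the largest. WT libraries held 14, 20 and 15 counts of it, which is 0.512, 0.858 and 0.571 CPM, and the knockouts 171, 166 and 413 counts, which is 5.73, 5.42 and 13.2 CPM. The low WT counts make the ratio imprecise. Its log2 fold change was 3.65 ± 0.43 (SE, 12.6-fold, edgeR, adjusted p = 0.00158), with a 95% interval from 2.69 to 4.62.

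The adult ε subunit *Chrne* (chr11:70614883-70619216, minus strand) was at 17.3, 17.4 and 20.1 CPM in WT and at 22.3, 35.3 and 35.5 CPM in *Mtm1* KO. The groups did not overlap, but the lowest knockout library was close to the highest WT library. With a log2 fold change of 0.77 ± 0.19 (SE, 1.70-fold, edgeR, adjusted p = 0.0336), *Chrne* was not called. It was called with DESeq2 (adjusted p = 0.00525), with scaling by library size only (0.00807), with no filter (0.00813) and without KO replicate 9 (0.00775). With the unused libraries added, its adjusted p was 0.130.

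The β subunit *Chrnb1* (chr11:69784036-69795943, minus strand) ranged from 44.9 to 57.1 CPM in WT and from 68.3 to 90.2 CPM in *Mtm1* KO. The ranges were apart, and the log2 fold change of 0.54 ± 0.15 (SE, edgeR, adjusted p = 0.0497) was not called. Scaling by library size only, under which the median of all genes shifted by 0.33 on the log2 scale, and limma on RPKM, which has the same scaling, called it.

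**Figure D1:**
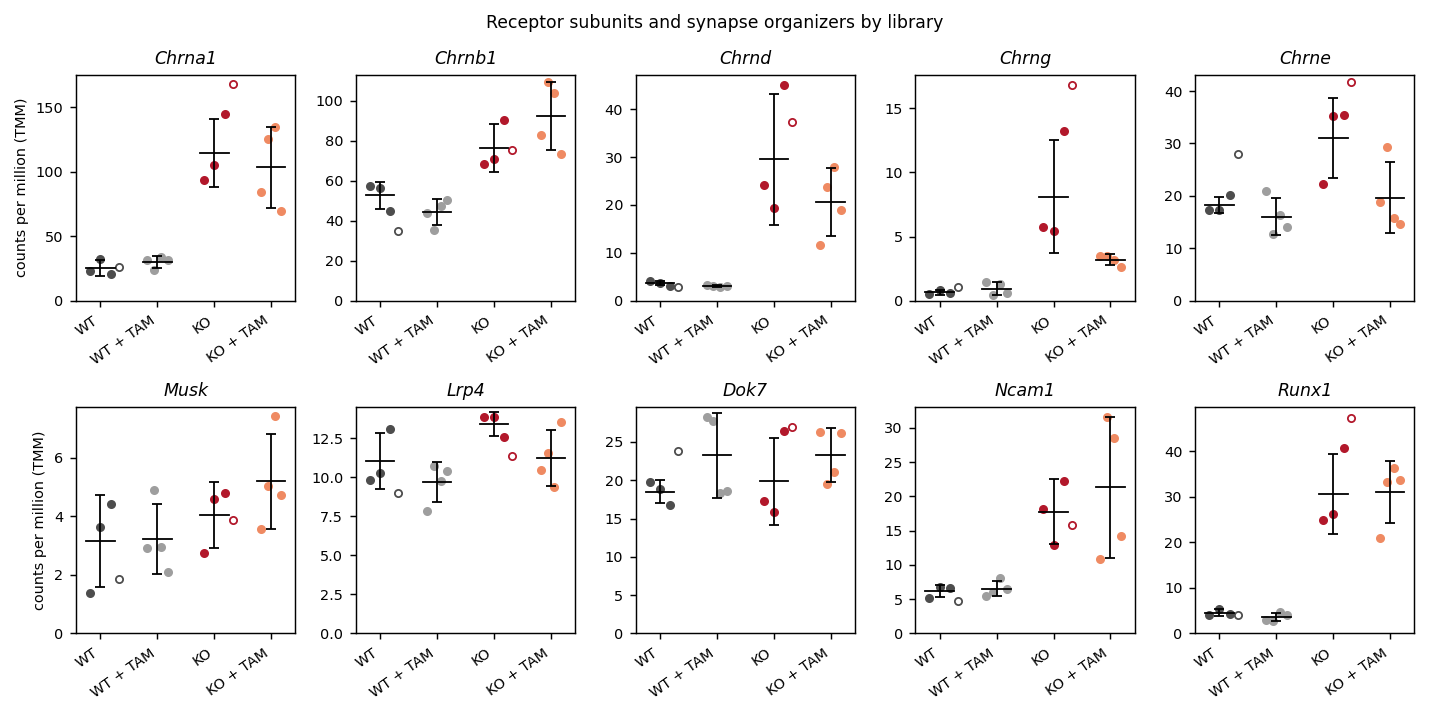
CPM (counts per 1000000 counts, TMM scaling) of the 10 genes in each library, by group; filled points are the 14 libraries of the main set, open points the 2 unused libraries, and bars the mean and SD of the filled points. For *Chrna1*, *Chrnb1*, *Chrnd*, *Chrng*, *Ncam1* and *Runx1* the filled points of both knockout groups lie above those of both WT groups, while *Musk*, *Lrp4* and *Dok7* overlap between KO + TAM and WT + TAM.

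*Runx1* (chr16:92601466-92826149, minus strand), a transcription factor known to limit wasting of denervated muscle, was at 3.95, 5.40 and 4.34 CPM in WT. In *Mtm1* KO it was at 24.9, 26.2 and 40.7 CPM. The 2 ranges were far apart. *Runx1* had the lowest adjusted p of the 10 genes, with a log2 fold change of 2.75 ± 0.22 (SE, 6.72-fold, edgeR, adjusted p = 3.22e-04).

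*Ncam1* (chr9:49502136-49798925, minus strand), the neural cell adhesion molecule, spreads over the surface of denervated fibers and is also made by Schwann and satellite cells. It was at 5.16, 6.78 and 6.66 CPM in WT and at 18.1, 12.9 and 22.3 CPM in *Mtm1* KO, without overlap. *Ncam1* had a log2 fold change of 1.52 ± 0.22 (SE, 2.87-fold, edgeR, adjusted p = 0.00399). The call was lost without WT replicate 2, 3 or 4 or KO replicate 9 or 11 (adjusted p from 0.0129 to 0.0155), with log2 fold changes from 1.32 to 1.59 in these 5 fits. Of the exonic bases of *Ncam1* 4.81% overlap *Gm11149* on the other strand, and the strand setting of the counting is not given in the sources used here.

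Markers of other cells moved as follows beside these genes. The 7 Schwann cell markers summed to 117 to 280 CPM in WT and 151 to 221 CPM in *Mtm1* KO, and the 4 satellite cell markers to 23.3 to 32.7 and 21.3 to 28.0 CPM, so both ranges overlapped. Leukocyte markers (6 of the 7 listed are in the table) summed to 37.5 to 47.2 CPM in WT and 54.6 to 84.1 CPM in *Mtm1* KO, and all 4 that were tested were higher without overlap, with 0 called by edgeR and 4 at an unadjusted p under 0.05. The muscle fiber markers summed to 109032 to 147618 CPM in WT and 66750 to 80134 CPM in *Mtm1* KO. Of these 7 genes 3 were higher and 4 lower, from -1.30 for *Myh4* to 1.21 for *Myh2* on the log2 scale, with 0 called. Only *Prph* of the 5 axon markers was tested, with a log2 fold change of 1.20 (edgeR, adjusted p = 0.142). On tamoxifen its value was -0.05 (edgeR, adjusted p = 0.947), and neither was called. The part of the leukocyte and fiber markers in the higher levels of *Runx1*, *Ncam1* and the receptor subunits was not tested.

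None of the 3 genes of the agrin receptor and its adaptor was called in this comparison. *Musk* (chr4:58285960-58374303, plus strand) ranged from 1.39 to 4.42 CPM in WT and from 2.75 to 4.80 CPM in *Mtm1* KO, with a log2 fold change of 0.37 and a 95% interval from -0.56 to 1.30. *Lrp4* (chr2:91457511-91513779, plus strand) ranged from 9.81 to 13.1 CPM and from 12.6 to 13.9 CPM, with 0.28 and an interval from -0.09 to 0.65. *Dok7* (chr5:35056766-35087839, plus strand) ranged from 16.8 to 19.8 CPM and from 15.9 to 26.4 CPM, with 0.11 and an interval from -0.33 to 0.54. Adjusted p ran from 0.292 to 0.755 (edgeR). The intervals leave room for a 2.46-fold higher *Musk* but for no more than 1.57-fold higher *Lrp4* and 1.46-fold higher *Dok7*.

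The order of the genes by level can be read only per unit of length, in the deposited RPKM (reads scaled to gene length and to the library's total). In WT, *Chrnb1* was highest with 19.1 ± 2.45 RPKM (SD, n = 3), followed by *Chrne* with 9.96 ± 1.33 and *Chrna1* with 5.22 ± 0.900. *Chrnd* stood at 1.01 ± 0.153, *Runx1* at 0.353 ± 0.032 and *Chrng* last at 0.141 ± 0.029 RPKM. The other 4 lay between *Chrna1* and *Runx1*. Neighbors in this order overlapped in range for *Chrna1* and *Dok7*, and along the run from *Chrnd* through *Lrp4* and *Musk* to *Runx1*. The place of *Ncam1*, at 1.46 ± 0.177 RPKM, rests on the 3899 bases that its RPKM implies, where the exons of GENCODE vM21 sum to 8664 bases. For *Dok7* and *Runx1* these lengths were 4228 against 4275 and 11827 against 12025 bases, and for the other 7 genes they were equal. In *Mtm1* KO, *Chrna1* with 29.8 ± 6.26 RPKM overlapped *Chrnb1* with 34.4 ± 4.55 RPKM, and *Chrnd* stood at rank 4 with 10.2 ± 4.44 RPKM. There *Chrng* had 2.21 ± 1.14 RPKM, above the means of *Lrp4* and *Musk*, with a range that overlapped that of *Lrp4*.

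Promoter sequences are shown for the genes called higher in both genotype comparisons that the RefSeq table holds, since these genes moved together. The table (GRCm38.p6, 250 bases before to 50 after a start) matched 7 of the 10 genes, and *Chrnd*, *Lrp4* and *Ncam1* are named only. *Chrne*, which was called in neither comparison, was added after its values were seen, to set beside *Chrng*. Capitals mark matches on either strand to CANNTG, the E-box letters, of which CAGCTG is one form, and to CCGGAA, the letters of the N-box that ETS factors bind in synaptic genes.
Chrna1, chr2:73580289-73580588, minus strand: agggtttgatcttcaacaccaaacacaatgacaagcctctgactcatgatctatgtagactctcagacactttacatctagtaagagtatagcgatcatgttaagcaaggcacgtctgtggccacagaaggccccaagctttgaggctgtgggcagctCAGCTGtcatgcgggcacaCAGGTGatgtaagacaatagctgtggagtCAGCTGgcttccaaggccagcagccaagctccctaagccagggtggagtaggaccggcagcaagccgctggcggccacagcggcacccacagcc
Chrng, chr1:87205561-87205860, plus strand: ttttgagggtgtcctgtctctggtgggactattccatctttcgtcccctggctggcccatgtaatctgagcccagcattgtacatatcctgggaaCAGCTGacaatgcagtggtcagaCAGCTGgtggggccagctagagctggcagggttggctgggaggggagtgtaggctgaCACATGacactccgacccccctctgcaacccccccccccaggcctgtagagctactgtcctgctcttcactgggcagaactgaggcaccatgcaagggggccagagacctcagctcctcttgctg
Runx1, first start, chr16:92826025-92826324, minus strand: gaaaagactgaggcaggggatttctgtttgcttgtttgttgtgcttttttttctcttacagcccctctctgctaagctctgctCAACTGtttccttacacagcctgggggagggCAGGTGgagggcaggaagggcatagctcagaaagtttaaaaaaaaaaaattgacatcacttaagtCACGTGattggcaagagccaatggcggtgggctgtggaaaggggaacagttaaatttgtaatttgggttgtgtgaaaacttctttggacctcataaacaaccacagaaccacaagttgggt
Runx1, second start, chr16:92697280-92697579, minus strand: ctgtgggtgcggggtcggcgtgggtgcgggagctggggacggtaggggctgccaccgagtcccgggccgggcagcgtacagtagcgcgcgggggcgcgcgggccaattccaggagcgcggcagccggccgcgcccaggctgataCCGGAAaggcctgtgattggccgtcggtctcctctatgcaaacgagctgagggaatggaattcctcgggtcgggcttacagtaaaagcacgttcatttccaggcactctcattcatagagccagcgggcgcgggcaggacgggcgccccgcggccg
Chrne, chr11:70619145-70619444, minus strand: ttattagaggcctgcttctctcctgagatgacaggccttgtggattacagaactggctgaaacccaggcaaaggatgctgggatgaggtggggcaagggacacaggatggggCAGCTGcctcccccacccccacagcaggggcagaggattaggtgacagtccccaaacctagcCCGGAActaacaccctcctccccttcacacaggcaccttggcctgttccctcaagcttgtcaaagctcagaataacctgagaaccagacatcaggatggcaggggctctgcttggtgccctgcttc

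CAGCTG occurred 2 times in the *Chrna1* window, at positions -92 and -44 from the start, and 2 times in the *Chrng* window, at -155 and -132. Of all 32851 promoters given there, 16.3% held it and 1.90% held it at least 2 times. The *Chrne* window held it at -138, beside CCGGAA at -76, which 14.9% of all promoters held. The window of *Musk*, which was called in neither genotype comparison, held CAGCTG at -68. Neither *Runx1* window held CAGCTG. The first had 3 other CANNTG matches, at -167, -136 and -71, and the second had CCGGAA at -106. CANNTG as a whole was in 72.3% of promoters, and at least 2 times in 39.6%. Promoters that held it included those of *Chrnb1* and *Musk*, with 3 each, and 1 of the 2 of *Dok7*. These are matches of letters only.

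Between the mice on tamoxifen, the genotypes differed in the same 5 genes and in *Chrnb1*. This comparison shares no library with the one above. Of the 10 genes 6 were called higher in *Mtm1* KO + TAM than in WT + TAM and 0 lower, where 3.42% of the 14563 genes tested were called higher and 3.30% lower. The same 6 did not overlap between the groups, against 11.8% of all genes. The median log2 fold change was 1.37 over the 10 genes and -0.01 over all genes tested. Leaving out any 1 library left 4 or 5 genes called.

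*Runx1* was at 3.01, 2.63, 4.76 and 3.97 CPM in WT + TAM replicates 5 to 8. In *Mtm1* KO + TAM replicates 13 to 16 it was at 20.9, 33.3, 36.4 and 33.6 CPM. The gap between the groups was wider than either group's range. The log2 fold change of *Runx1* was 3.09 ± 0.23 (SE, 8.51-fold, n = 4 and 4, edgeR, adjusted p = 3.59e-05), the largest of the 10 genes here.

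*Chrnd* was at 3.23, 3.04, 2.78 and 3.13 CPM in WT + TAM and at 11.6, 23.7, 28.0 and 19.0 CPM in *Mtm1* KO + TAM. Its log2 fold change was 2.74 ± 0.24 (SE, 6.66-fold, edgeR, adjusted p = 9.76e-05). The WT + TAM libraries were close to each other, while the knockout libraries on tamoxifen spread widely above them. *Chrna1* was at 31.4, 23.7, 33.9 and 31.5 CPM and at 84.3, 125, 135 and 69.8 CPM, with a log2 fold change of 1.76 ± 0.21 (SE, 3.39-fold, edgeR, adjusted p = 5.18e-04). *Chrnb1* ranged from 35.3 to 50.5 CPM and from 73.4 to 109 CPM, with a log2 fold change of 1.04 ± 0.16 (SE, 2.06-fold, edgeR, adjusted p = 0.00170). Neither gene overlapped between the groups.

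*Chrng* held 33, 10, 31 and 15 counts in WT + TAM, or 1.42, 0.405, 1.31 and 0.626 CPM. In *Mtm1* KO + TAM it held 105, 116, 111 and 78 counts, or 3.51, 3.49, 3.18 and 2.61 CPM. The 4 knockout libraries were near each other and all above the WT + TAM libraries. The log2 fold change was 1.75 ± 0.36 (SE, 3.36-fold, edgeR, adjusted p = 0.00810). The call was lost on leaving out WT_TAM replicate 6, 7 or 8 or any of the KO_TAM replicates 13 to 16 (adjusted p from 0.0115 to 0.0244), with log2 fold changes from 1.49 to 2.01 over the 8 fits. *Chrne* was at 20.9, 12.8, 16.4 and 14.1 CPM in WT + TAM and at 18.9, 29.4, 15.7 and 14.6 CPM in *Mtm1* KO + TAM. These ranges overlapped, and the log2 fold change of 0.28 ± 0.23 (SE, edgeR, adjusted p = 0.441) was not called.

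*Ncam1* was at 5.51, 6.07, 8.05 and 6.43 CPM in WT + TAM and at 10.8, 31.7, 28.6 and 14.2 CPM in *Mtm1* KO + TAM. The 4 knockout libraries fell into a lower and a higher pair, all above WT + TAM. The log2 fold change was 1.69 ± 0.31 (SE, 3.23-fold, edgeR, adjusted p = 0.00465), and the call was lost without WT_TAM replicate 5, 6 or 8 or KO_TAM replicate 14 or 15 (adjusted p from 0.0119 to 0.0173). *Musk*, *Lrp4* and *Dok7* were not called, with log2 fold changes of 0.67, 0.20 and -0.02 (edgeR, adjusted p from 0.129 to 0.961). The value of *Dok7* became 0.26 with scaling by library size only, under which the median of all genes was 0.27. The satellite cell markers summed to 31.3 to 37.9 CPM in WT + TAM and 18.1 to 27.5 CPM in *Mtm1* KO + TAM, without overlap, while the Schwann cell markers overlapped, at 187 to 222 and 173 to 309 CPM. The leukocyte markers summed to 20.3 to 45.7 CPM in WT + TAM and 52.9 to 94.7 CPM in *Mtm1* KO + TAM, and the muscle fiber markers to 121077 to 125233 and 63427 to 93281 CPM. Of the 7 fiber markers 3 were higher and 4 lower, from -1.24 for *Myh4* to 1.51 for *Myh2* on the log2 scale, with 2 called lower. The part of all these markers in the differences between the groups was not tested.

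**Figure D2:**
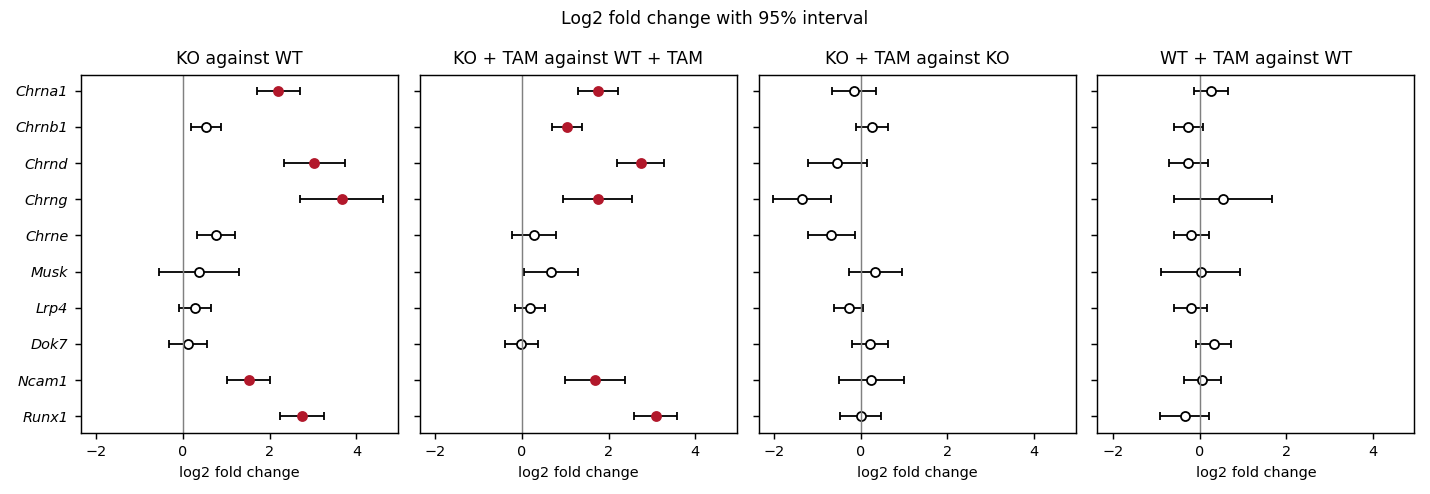
Log2 fold change of each gene with its 95% interval in 4 comparisons (edgeR); filled points are called at an adjusted p of at most 0.01. Both genotype comparisons hold filled points (5 and 6), and both tamoxifen comparisons hold none.

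Whether tamoxifen moved these genes within the knockout was asked by comparing *Mtm1* KO + TAM with *Mtm1* KO. None of the 10 genes was called, nor was any of the 15062 genes tested (0%) in edgeR's test. At an unadjusted p under 0.05 there were 2 of the 10 genes, *Chrng* and *Chrne*, and 1137 of all genes. DESeq2 called *Chrng* as the only one of the 10, with 72 genes in all.

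*Chrng*, at the CPM given above, was lower in every *Mtm1* KO + TAM library than in every *Mtm1* KO library. It was the only 1 of the 10 genes without overlap here, against 3.61% of all genes in that direction. The log2 fold change was -1.36 ± 0.30 (SE, 0.390-fold, 95% interval -2.02 to -0.69, edgeR, adjusted p = 0.191). With DESeq2 it was -1.35 with an adjusted p of 0.00666. *Mtm1* KO replicate 11 carried much of the size of the difference: over the fits that left out 1 library each, the value ran from -1.58 to -0.81, the latter without that library. The library labelled KO replicate 12, unused in this comparison, was at 16.8 CPM, above all others, and with both unused libraries the value was -1.71 (edgeR, adjusted p = 0.206).

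*Chrne* moved in the same direction, with a log2 fold change of -0.68 ± 0.25 (SE, edgeR, adjusted p = 0.513). Its groups overlapped, since *Mtm1* KO + TAM replicate 14 was above *Mtm1* KO replicate 9. For *Runx1* the log2 fold change was 0.00 with a 95% interval from -0.47 to 0.48, and for *Chrna1* it was -0.16 with an interval from -0.67 to 0.35. *Chrnd* had -0.54 with an interval from -1.22 to 0.15, *Chrnb1* 0.26 from -0.11 to 0.62, and *Ncam1* 0.25 from -0.49 to 0.99. None of these 5 genes was called, and the intervals bound a change without excluding one. *Musk*, *Lrp4* and *Dok7* had values from -0.27 to 0.34.

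In WT mice tamoxifen gave 0 called of the 10 genes in edgeR's test, where 0.131% of the 14544 genes tested were called. None of the 10 reached an unadjusted p under 0.05, and DESeq2 called 0 of the 10. Log2 fold changes ran from -0.35 for *Runx1* to 0.54 for *Chrng*, whose 95% interval from -0.60 to 1.68 was the widest. Whether the 2 genotypes differed in their response to tamoxifen was tested as an interaction in 1 fit of the 4 groups. In edgeR's test 0 of the 10 genes and 0% of the 15556 genes tested were called, and DESeq2 called 0 of the 10. At an unadjusted p under 0.05 stood *Chrng* with -1.88 ± 0.58 (SE, edgeR, adjusted p = 0.916) and *Chrnb1* with 0.52 ± 0.23 (SE, edgeR, adjusted p = 0.9998), beside 664 of all genes. A difference between the genotypes in the response of *Chrng* to tamoxifen was therefore not called.

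The balance of fetal against adult subunit is given as the share of *Chrng* in the summed RPKM of *Chrng* and *Chrne*, with no test. It was 1.19, 1.96 and 1.14% in WT, and 9.44, 5.87 and 13.1% in *Mtm1* KO. In WT + TAM it was 2.69, 1.27, 3.14 and 1.77%, and in *Mtm1* KO + TAM 7.0, 4.61, 7.58 and 6.77%. Every knockout library, treated or not, was above every WT library. The means were 1.43 ± 0.46% (SD, n = 3), 9.47 ± 3.62% (n = 3), 2.22 ± 0.85% (n = 4) and 6.49 ± 1.30% (n = 4) in the same order. The 2 knockout groups overlapped. Transcripts of ε made up most of this sum in all 16 libraries, the library labelled KO replicate 12 included, at a γ share of 14.1%. The share depends on the lengths behind the RPKM, which are 4163 bases for *Chrng* and 1690 for *Chrne* and equal the summed exons of GENCODE vM21. The *Chrng* gene of that annotation begins upstream of the RefSeq start used for the promoter above.

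**Figure D3:**
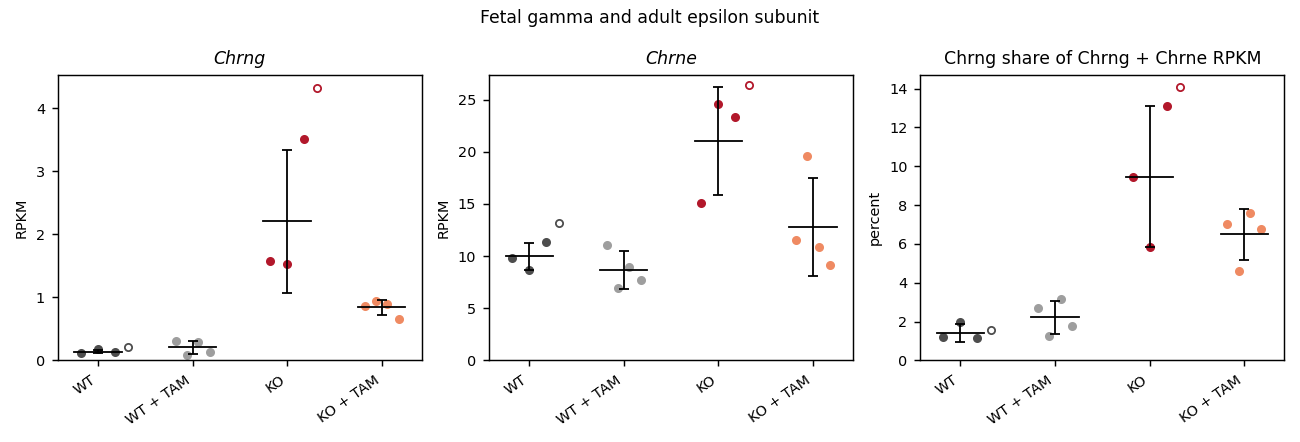
RPKM of *Chrng* and of *Chrne* and the percent of *Chrng* in their sum, by library and group; filled points are the main set, open points the 2 unused libraries, and bars the mean and SD of the filled points. *Chrng* is lower in all 4 KO + TAM libraries than in the KO libraries, while the share overlaps between them, from 4.61 to 7.58% and from 5.87 to 13.1%.

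Other genes of the synapse were read from a list of 30, among them *Rapsn*, *Agrn*, *Ache* and the Erbb receptors. Only *Colq*, which encodes the collagen tail that anchors acetylcholinesterase in the synaptic cleft, was called. In *Mtm1* KO against WT it was 1 of 28 tested, higher by 1.27 ± 0.19 on the log2 scale (SE, edgeR, adjusted p = 0.00516), and in *Mtm1* KO + TAM against WT + TAM 1 of 29, higher by 0.76 ± 0.16 (SE, edgeR, adjusted p = 0.00995). The first call was lost without WT replicate 2 or 3 or KO replicate 10 or 11 and with the unused libraries added (adjusted p = 0.0113), and the second without any 1 of the 8 libraries. Of all genes tested, 1.91% and 3.42% were called higher in the untreated and the treated mice. Log2 fold changes in the list were split, 14 up and 14 down in the untreated mice with a median of -0.01, beside the 1.14 of the 10 genes. The median was -0.15 on tamoxifen.

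A list of 13 genes known to respond to denervation of muscle had 4 called higher and 0 lower in *Mtm1* KO against WT. Of all genes tested, 1.91% were called higher and 1.69% lower. The 4 genes were *Myog*, the myogenin gene, *Myh3* and *Myh8*, the embryonic and perinatal myosin heavy chains, and *Cdkn1a*, a cell cycle inhibitor. *Myog* ranged from 25.5 to 29.4 CPM in WT and from 84.1 to 124 CPM in *Mtm1* KO, with a log2 fold change of 1.95 ± 0.16 (SE, edgeR, adjusted p = 4.00e-04). *Myh3* and *Cdkn1a* had log2 fold changes of 3.89 and 3.65, and *Myh8* of 2.60. The list also holds *Dach2* and *Hdac9*, repressors of myogenin that are known to fall after denervation. They were not called, with -1.41 and 0.00 here and -1.40 and 0.23 on tamoxifen (edgeR, adjusted p from 0.119 to 0.995). In *Mtm1* KO + TAM against WT + TAM, 3.42% of all genes tested were called higher and 3.30% lower. Of the list 7 were called higher and 0 lower, *Gadd45a*, *Kcnn3* and *Ampd3* in addition to the 4 above. Those 3 genes had log2 fold changes of 1.68, 2.2 and 1.35 in the untreated mice (edgeR, adjusted p = 0.0242, 0.0111 and 0.0106), and all 3 were called there with library size only, with no filter and in 1 fit of 4 groups. *Myog* on tamoxifen had 1.40 ± 0.28 (SE, edgeR, adjusted p = 0.00672). The calls of *Myog* and *Myh8* in the treated mice were lost on leaving out single libraries, for *Myog* WT_TAM replicate 5 or 8 or any KO_TAM replicate, and for *Myh8* WT_TAM replicate 6, 7 or 8 or KO_TAM replicate 13. The medians of the list were 1.35 and 1.40, beside 0.02 and -0.01 over all genes tested. This list, too, was chosen with earlier results of these data known. Tamoxifen gave 0 called genes of either list within a genotype in edgeR's test, where 6 synapse and 1 denervation genes had an unadjusted p under 0.05 in the knockout and 2 and 5 in WT, against 1137 of 15062 and 1549 of 14544 of all genes. *Myh8* came nearest to a call, from 3.62 to 4.97 CPM in WT and from 8.51 to 15.5 CPM in WT + TAM, with a log2 fold change of 1.51 ± 0.23 (SE, 2.85-fold, edgeR, adjusted p = 0.0253), which passes a threshold of 0.05.

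The acetylcholine receptor subunits other than those of muscle had few counts. Of 11 such genes, 2 and 3 passed the filter in the genotype comparisons without and with tamoxifen, and 0 were called in edgeR's test, with 1 and 0 at an unadjusted p under 0.05, against 4431 of 14740 and 4700 of 14563 of all genes. Within a genotype tamoxifen gave 0 called, of 4 tested in WT and 3 in the knockout. In WT + TAM against WT, *Chrna9* had a log2 fold change of 2.77 ± 0.60 (SE, edgeR, adjusted p = 0.0898). Its interaction was -2.20 ± 0.69 (SE, edgeR, adjusted p = 0.916). *Chrna6* and *Chrnb3* had 0 counts in all 14 libraries of the main set. The highest count of any in these libraries was 90, for *Chrna9*, where *Chrna1* had at least 538.

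**Figure D4:**
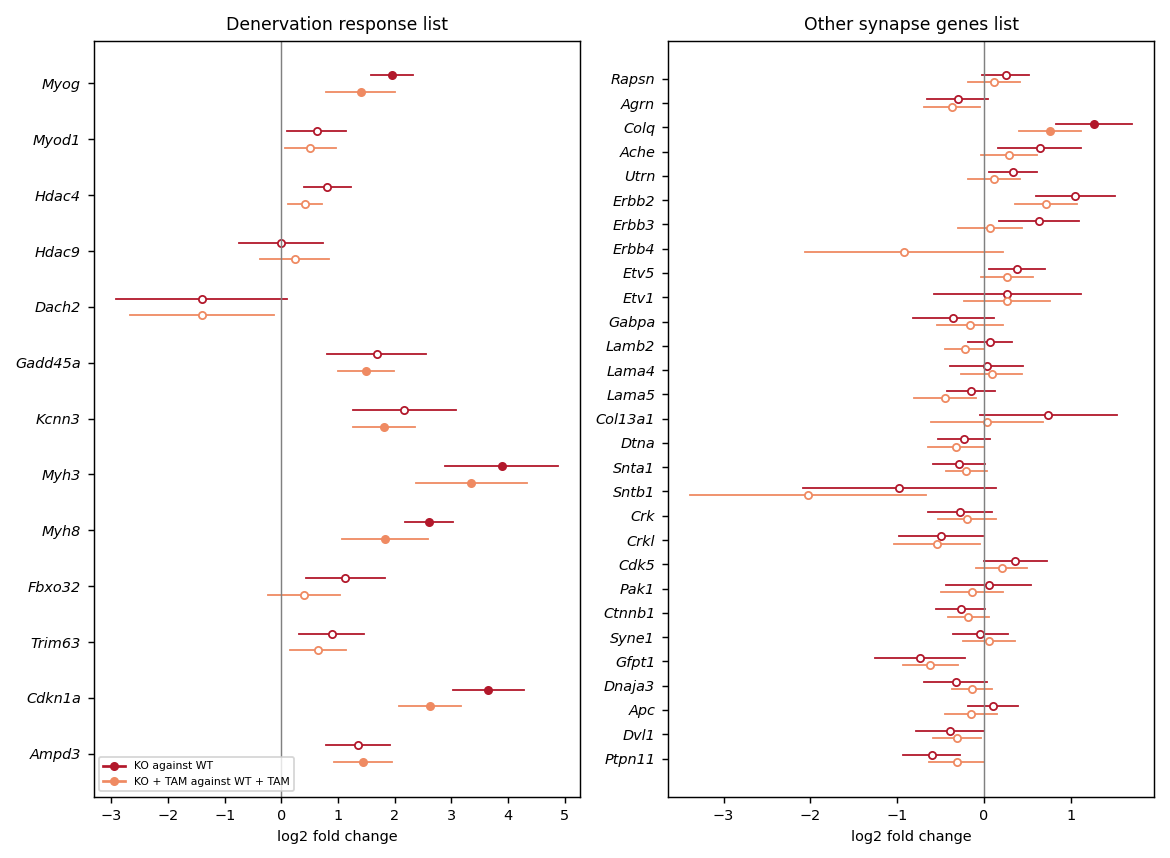
Log2 fold change with 95% interval for the denervation list and the other synapse genes in KO against WT and in KO + TAM against WT + TAM; filled points are called at an adjusted p of at most 0.01. In the denervation list 4 and 7 points are filled, all on the higher side, and in the synapse list only those of *Colq*.

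Genes with the most similar pattern were found by the root mean square difference in log2 CPM over the 14 libraries, each gene taken relative to its WT mean, among 15556 genes. For *Chrna1* these were *Osbpl3* (0.31), *Tnnt2* (0.32) and *Spsb2* (0.34), with *Tnnt2*, the cardiac and embryonic troponin T, 1.83 above WT in *Mtm1* KO and 2.22 in *Mtm1* KO + TAM. For *Runx1* they were *Tubb6* (0.28), *Ttc9* (0.32) and *Sfn* (0.37). For *Chrne* they were *Gm14630* (0.17), *Cpxm1* (0.24) and *Cst3* (0.24). *Chrng* had no gene as near, the nearest being *Lgals3*, *Il22ra2* and *Nfe2l3* at 0.56 to 0.58. The counts of *Chrng* were low, at 10 to 33 in the WT and WT + TAM libraries. The part of the scatter of low counts in this distance was not tested. *Lgals3*, which encodes galectin-3 and is abundant in macrophages, was 2.82 and 2.52 above WT in *Mtm1* KO and *Mtm1* KO + TAM, where *Chrng* was 3.39 and 2.18 above. All these genes share the same libraries, and the likeness is a description.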

How the data were processed

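RNA of quadriceps was sequenced in 16 libraries. Per the authors, reads were aligned to GRCm38 with STAR in 2 steps and counted on genes with HTSeq. The submitters' processing notes list STAR 2.5.0c, Cufflinks 2.2.1 and bcl2fastq 2.17. The deposited raw counts are whole numbers per gene with no scaling. The deposited RPKM values were scaled by total count and gene length. Checked over 8406 genes, the largest deviation from scaling by the total alone was 0.0519%. On annotation, strand setting and counting mode, nothing is given in the sources used here. Counts were identical in 0 of 120 pairs of libraries.

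Tests used edgeR 4.0.16 in R 4.3.3 on the counts of each pair of groups. Steps were filterByExpr (count 10, total 15), TMM scaling and the quasi-likelihood test, with p-values adjusted by Benjamini-Hochberg over all genes tested and called at an adjusted p of at most 0.01. The interaction used 1 fit of the 4 groups. SE is the log2 fold change over the square root of F. CPM was scaled with TMM factors over 16 libraries. TMM rests on most genes being unchanged, and the 10 most abundant genes took 23.6 to 27.6% of counts in WT and 16.9 to 18.8% in *Mtm1* KO. Simulated data for the 5 comparisons, each with 200 genes changed 2 log2 units, gave 178 to 197 of them as called and 0 to 4 false calls. The changed genes were drawn only from those above a floor of expected counts, which was higher than the WT counts of *Chrng*. This recovery does not cover genes with lower counts or smaller changes. The alternatives were DESeq2 1.42.0, RLE and library size scaling, no filter, limma 3.58.1 on log2(RPKM + 0.1) and log2(RPKM + 1), a threshold of 0.05, 1 fit of 4 groups, all 16 libraries and each library left out.

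The genes and lists were chosen with earlier results of these data known. All 10 genes were named, and from the lists those called in a genotype comparison, at most 6 per list and comparison by p. Genes named as examples of a list fall outside this rule and were named after values were seen. An item of the denervation list is not reported here and enters none of its counts and medians. Positions are from GENCODE vM21 (GRCm38). No protein sequence was used here.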

Additional observations from a re-analysis of the deposited data

Results flagged for a closer look

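Both libraries outside the main set were flagged as data that the comparisons did not use, because genes in them lay above the highest of WT replicates 2 to 4. In the library labelled KO replicate 12 these were 8 of the 10 genes, *Chrna1* with 168 CPM, *Chrnb1* with 75.5, *Chrnd* with 37.4, *Chrng* with 16.8, *Chrne* with 41.7, *Dok7* with 26.9, *Ncam1* with 15.9 and *Runx1* with 47.4 CPM. For *Chrna1*, *Chrng*, *Chrne*, *Dok7* and *Runx1* it was also above the 3 *Mtm1* KO libraries used. In the library labelled WT replicate 1 they were *Chrng* with 1.10 CPM, *Chrne* with 27.9 CPM and *Dok7* with 23.9 CPM. This library had *Mtm1* at 3.69 CPM, above the knockout libraries (1.77 to 3.08 CPM) and far below WT replicates 2 to 4 (13.3 to 14.6 CPM). Its *Chrna1*, *Chrnd*, *Ncam1* and *Runx1* were at 25.9, 2.84, 4.74 and 3.99 CPM, below the range of both knockout groups. In groups of 4, no sample of the 10 genes passed Dixon's 95% critical value on CPM. *Runx1* in KO_TAM replicate 13 came nearest, with a ratio of 0.804 on CPM, and passed it on log2 CPM, with 0.843. No interaction was called.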

How the results depend on the processing

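No paired analysis was possible because the groups share no replicate number and the labels do not say which of the littermates belong together. The number of genes called kept within 1.5 times its value in each comparison, except that DESeq2 called 1 gene, *Chrng*, for *Mtm1* KO + TAM against *Mtm1* KO. Leaving out 1 library gave 4 to 5 genes called in each genotype comparison and 0 in the others. From raw counts without length, the γ share was 3.45% in WT, 5.27% in WT + TAM, 20.3% in *Mtm1* KO and 14.6% in *Mtm1* KO + TAM, with lower and higher groups in the same order.

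Among the 10 genes, directions changed under these alternatives only for log2 fold changes between -0.27 and 0.33, none of them called. *Dok7* in *Mtm1* KO + TAM against WT + TAM became 0.26 with library size only and 0.27 and 0.23 in limma with pseudocounts of 0.1 and 1. *Runx1* in *Mtm1* KO + TAM against *Mtm1* KO became -0.021, -0.032 and -0.021 under the same settings and -0.19 with 16 libraries. With 1 library left out, *Dok7* ran from -0.16 to 0.25 in *Mtm1* KO against WT and from -0.11 to 0.090 in *Mtm1* KO + TAM against WT + TAM. In *Mtm1* KO + TAM against *Mtm1* KO, *Chrna1* ran from -0.31 to 0.048, *Ncam1* from -0.0081 to 0.47 and *Runx1* from -0.13 to 0.27. In WT + TAM against WT, *Musk* ran from -0.33 to 0.38 and *Ncam1* from -0.054 to 0.14. For the interaction, *Chrnd* ran from -0.49 to 0.18, *Musk* from -0.021 to 0.69, *Lrp4* from -0.21 to 0.022, *Dok7* from -0.23 to 0.16 and *Ncam1* from -0.068 to 0.41. The causes were not tested. Of 440 values of the 10 genes under the other alternatives, 424 kept direction and side of the threshold, 9 gained a call and 7 changed direction. Of 420 with 1 library left out, 378 kept both, 17 lost a call, 1 gained one and 24 changed direction. The named genes of the other lists gained 17 calls of 144 under the other alternatives, all of *Kcnn3*, *Gadd45a* or *Ampd3* in *Mtm1* KO against WT, and lost 1. The 10 to 33 counts of *Chrng* in the WT and WT + TAM libraries limit the precision of its fold changes.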
